A study of Sus scrofa with 4 samples.

Results

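Collagens VI, VIII, XII, XIV and XVI were described through 8 genes that encode their chains: COL6A1, COL6A2, COL6A3, COL8A1, COL8A2, COL12A1, COL14A1 and COL16A1. They were found by symbol, all 8 once each, among the 21280 features of the count matrices. The cells came from the meniscus of the pig, a crescent of fibrocartilage between femur and tibia, which was cleared of synovium and digested with pronase and then collagenase. There were 4 single-cell libraries, made with a 3' kit: the red and the white zone of the lateral meniscus and the red and the white zone of the medial meniscus, 1 library each. Blood vessels reach the peripheral red zone in textbook descriptions, and the white zone along the inner rim lacks them. No treatment, genotype or age is given in the labels, which name no animals, so the p-values below concern these libraries only. With so few libraries the test takes most of the spread of a gene from the other genes.

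These collagens do not form the thick banded fibrils of collagens I and II. Collagen VI, whose chains come from COL6A1, COL6A2 and COL6A3, assembles into beaded microfilaments that in cartilage and meniscus are concentrated in the pericellular matrix, the shell around each cell. Collagen VIII is a short-chain, network-forming collagen known from vessel walls and from the membrane under the corneal endothelium. Collagens XII, XIV and XVI belong to the FACIT group (fibril-associated collagens with interrupted triple helices), which sit on the surface of fibrils and connect them to other matrix molecules.

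In the RefSeq annotation of Sscrofa11.1, the build of the files, COL12A1 lies on chromosome 1 (90744409-90875127), COL14A1 on chromosome 4 (18690197-18925111) and COL16A1 on chromosome 6 (88177798-88243718). COL8A2 lies on the same chromosome as COL16A1 (92246047-92272046), COL8A1 on chromosome 13 (159216138-159374718) and COL6A3 on chromosome 15 (137011549-137103687). COL6A2 lies on an unplaced sequence, and COL6A1 is named only. With a 3' kit a gene is counted through the end of its transcript, and whether the gene model used for counting COL6A2 holds that end was not tested, so that the COL6A2 levels below may stand for part of its transcripts only. The counts come from whole genes, so no exon, intron or UTR can be told apart. Over all cells the members had 69409 UMIs (unique molecular identifiers, 1 per captured transcript) for COL6A1, 3445 for COL6A2, 53776 for COL6A3, 6456 for COL8A1, 544 for COL8A2, 18620 for COL12A1, 69380 for COL14A1 and 9453 for COL16A1. These totals set the precision of each gene and are not compared between genes. COL8A2, the gene with the fewest UMIs, is the one whose values carry the largest counting error.

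Each library kept 5701 to 7807 cells with 9612276 to 14902274 UMIs, at a median of 1473 to 1617 UMIs per cell. Pairs of libraries shared 10 to 20 cell barcodes, 0.161% to 0.271% of the smaller library. Cells were grouped by how many genes of each marker list had a UMI: a cell with at least 3 markers of a list, and no other list with more than 50% as many, took the name of that list. The fibrochondrocyte list stood outside this contest: it named only cells that reached 3 markers of no other list. Cartilage-marker cells therefore also held fibrochondrocyte markers, at a median of 4 beside 5 of their own in both white libraries, and fibrochondrocyte-marker cells held a median of 1 (red) or 2 (white) cartilage markers. This gave 10186 cells with cartilage markers (such as COL2A1 and ACAN), 4035 with fibrochondrocyte markers (such as COMP and CILP2), 3417 with fibroblast markers (such as DPT and PDGFRA), 1855 with mural markers (such as ACTA2 and RGS5, of vascular smooth muscle and pericytes), 1688 with endothelial and 1270 with myeloid markers. A further 1776 cells met several lists and 3247 met none. None of the members is a marker. Fibroblast-marker cells made up 19.6% (lateral) and 32.6% (medial) of the red libraries but 0.677% and 0.372% of the white ones, while cartilage-marker cells made up 5.82% and 2.62% of the red and 67.6% and 60.0% of the white zone. A sum over all cells therefore cannot tell fewer cells of a type from less RNA per cell.

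The first question was where in the meniscus these collagens are expressed. Over all cells COL14A1 was the one member that fell from the red to the white zone, COL8A2 the one that rose, and the other 6 did not pass the test. The level is given as CPM, the UMIs of the gene per 1000000 UMIs of the library, first for the lateral meniscus (red, then white) and then for the medial one (red, then white).

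COL6A1, which encodes a chain of the collagen VI microfilament, had 1961, 674, 2107 and 1098 CPM, so that both red libraries lay above both white ones. COL6A3, the gene of its longest chain, had 1388, 644, 1450 and 967 CPM with the same order. COL6A2 had 111, 70.8, 64.9 and 42.6 CPM, and here the lateral white library lay above the medial red one. The log2 fold changes of white against red zone were -0.75 ± 0.28 (SE, 2 libraries per zone, adjusted p = 0.0689) for COL6A1, -0.35 ± 0.26 (adjusted p = 0.319) for COL6A3 and -0.14 ± 0.16 (adjusted p = 0.538) for COL6A2. None of the collagen VI genes passed the threshold of 0.05 in edgeR's quasi-likelihood test with Benjamini-Hochberg adjustment. COL6A1 passed with DESeq2 (adjusted p = 0.0154), without the filter on low counts (0.0343), without the 5% of cells with the most UMIs (0.0433) and without the medial white library (0.0051).

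COL14A1, the FACIT gene of collagen XIV, had 2314 and 2385 CPM in the red libraries (lateral first) and 857 and 478 CPM in the white ones. The groups did not overlap, and the fold change was -1.38 ± 0.33 on the log2 scale, 2.61-fold lower in the white zone (adjusted p = 0.0128). COL12A1, the FACIT gene of collagen XII, had 448, 199, 494 and 385 CPM (log2 fold change -0.27 ± 0.24, adjusted p = 0.406). COL16A1 had 246, 168, 178 and 180 CPM (0.23 ± 0.20, adjusted p = 0.407). For COL16A1 the lateral red library was the highest and the other 3 lay close together.

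COL8A1, which encodes the first chain of collagen VIII, had 122, 68.4, 149 and 173 CPM, with the red zone between the white libraries (log2 fold change 0.18 ± 0.25, adjusted p = 0.596). COL8A2, which encodes its partner chain, had 10.3, 11.7, 7.60 and 13.02 CPM, from 99, 161, 90 and 194 UMIs. Both white libraries lay above both red ones, and the log2 fold change was 0.97 ± 0.23 (adjusted p = 0.0135). The CPM differ by less than this fold because TMM scaling, which sets most genes to no change, shifted all genes: without it the median of all genes was -0.50 against -0.0049. The call of COL8A2 was lost without TMM (0.48, adjusted p = 0.130), with DESeq2 (0.98, adjusted p = 0.0742) and without the medial red library (0.73, adjusted p = 0.165).

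**Figure D1:**
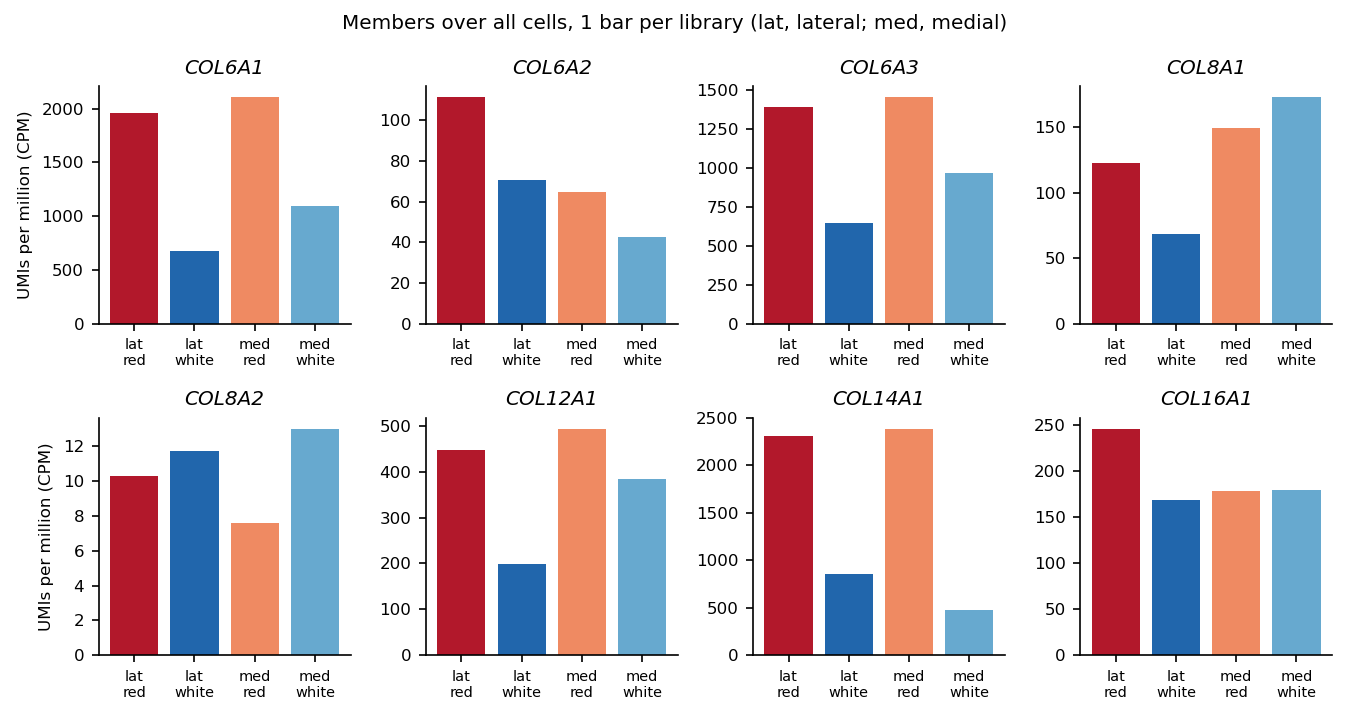
Level of each member over all cells, in CPM (vertical axis from 0), with 1 bar per library and no error bar because each bar is 1 library. COL14A1 stood at 2314 and 2385 CPM in the red zone and at 857 and 478 CPM in the white zone, and COL8A1 had no such order.

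With 2 of 8 members called, 1 higher and 1 lower, the share was below that of all 12481 genes tested, of which 39.3% were called (17.4% higher and 21.8% lower). The median log2 fold change of the members was -0.21. Without TMM 0 members were higher and 5 lower (COL6A1, COL6A2, COL6A3, COL12A1 and COL14A1), where 6110 of 12481 genes were called and the median of all genes was -0.50, while COL8A1 (-0.31) and COL16A1 (-0.27) changed sign, and with DESeq2 0 were higher and 2 lower. A fit of zones or menisci without 1 library has no residual degrees of freedom for the second term and leaves it out as well. COL14A1 missed the threshold without the lateral red (adjusted p = 0.0555) or the medial red library (adjusted p = 0.0632), and its log2 fold change was -0.90 without the medial white one. COL8A1 passed without the lateral white library (0.78, adjusted p = 0.0047), which gave 3 calls, and COL6A1 and COL12A1 (-0.69) passed without the medial white one, which gave 4. 1 call was left without the lateral red library and 0 without the medial red one.

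Between the menisci 0 of 8 members passed, against 3 of 12481 genes (0.0240%) with edgeR and 31 with DESeq2, which also called 0 members. At an unadjusted p below 0.05 there were 2 members and 832 genes. COL6A2 was lower in the medial meniscus in both zones (log2 fold change -0.83 ± 0.16, unadjusted p = 0.0011, adjusted p = 0.333), and COL8A1 was higher in both zones (0.73 ± 0.25, adjusted p = 0.626). Without the filter on low counts COL6A2 passed (-0.83, adjusted p = 0.0151).

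The next comparison was between cell groups. Fibroblast-marker cells held the highest levels of COL6A1, COL6A3 and COL14A1 in the red zone, fibroblast-marker, fibrochondrocyte-marker and cartilage-marker cells held COL8A1 and COL16A1, and mural-marker cells held COL12A1 at the level of the matrix cells but little COL8A1 or COL14A1. Endothelial-marker and myeloid-marker cells were low in all 8.

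In fibroblast-marker cells COL6A1 had 4027 CPM in the lateral red, 3185 in the lateral white and 3472 in the medial red library. The medial white library had 29 such cells and was not used for tests of this group. In cartilage-marker cells of the same libraries COL6A1 had 1367, 560 and 1622 CPM, so the groups did not overlap (log2 fold change 1.38 ± 0.28, 3 libraries, adjusted p = 0.000306). COL6A3 behaved likewise, with 2665, 2287 and 2237 CPM in fibroblast-marker and 1037, 592 and 1006 CPM in cartilage-marker cells (1.14 ± 0.26, adjusted p = 0.0013). COL16A1 was lower in fibroblast-marker cells (-1.12 ± 0.24, adjusted p = 0.000454), with 271, 152 and 221 CPM against 509, 171 and 457 CPM, the lateral white library showing the smallest difference.

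In this comparison 2 members were higher and 1 lower of 8, against 15.7% of 8341 genes called (8.52% higher and 7.18% lower). COL14A1 had 4564, 1377 and 4212 CPM in fibroblast-marker and 2531, 832 and 2395 CPM in cartilage-marker cells, higher in the former in 3 of 3 libraries, but did not pass (0.46 ± 0.27, adjusted p = 0.284). COL12A1 (-0.08 ± 0.25), COL8A1 (-0.22 ± 0.26), COL6A2 (0.29 ± 0.23) and COL8A2 (-0.79 ± 0.55) did not pass either. Without the lateral red library none of the 3 calls held (adjusted p = 0.130 to 0.228), and without the lateral white library, whose 50 fibroblast-marker cells are the smallest group used, 5 members were called, with COL8A1 (-0.59) lower and COL14A1 (0.56) higher in addition. COL14A1 also passed without TMM (0.80, adjusted p = 0.0147).

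Mural-marker cells were lower than fibroblast-marker cells in every member tested but COL12A1. These comparisons of cell groups share the fibroblast-marker sums. COL12A1 had 747, 713 and 643 CPM in the mural-marker cells of the lateral red, lateral white and medial red libraries against 431, 303 and 631 CPM in fibroblast-marker cells, and did not pass (0.31 ± 0.22, adjusted p = 0.278), except without TMM (0.60, adjusted p = 0.0236). COL14A1 had 247, 325 and 232 CPM in mural-marker cells and was lower than in fibroblast-marker cells (-3.94 ± 0.30, adjusted p = 5.12e-11). Myeloid-marker cells had 265, 8.86 and 165 CPM in the same libraries, above the mural level in the lateral red one and below it elsewhere. In the red libraries the fold thus rests in part on a mural level near that of myeloid-marker cells. COL8A1 (-2.84 ± 0.25), COL16A1 (-2.33 ± 0.21), COL6A3 (-1.32 ± 0.17), COL6A1 (-1.23 ± 0.19) and COL6A2 (-0.98 ± 0.20) were also lower. Of the 7 members with more than 3 UMIs in each group, 6 were lower and 0 higher, where 39.6% of 9094 genes were called and 20.6% were lower. COL8A2 had 1 UMI in all 1855 mural-marker cells and gets no fold change. The call of COL6A2 was lost without the lateral red or the medial red library (adjusted p = 0.420 and 0.175).

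In endothelial-marker cells all 7 members with more than 3 UMIs were lower than in fibroblast-marker cells, where 49.1% of 8593 genes were called and 25.3% were lower. The log2 fold changes ran from -5.76 ± 0.27 for COL14A1 to -2.99 ± 0.24 for COL8A1, and COL8A2 had 0 UMIs there in every library. COL6A1 in endothelial-marker cells, with 103, 79.7, 151 and 166 CPM, lay near its level in myeloid-marker cells (177, 44.3, 133 and 365 CPM). The level in myeloid-marker cells is used as a reference and called background. Whether its UMIs come from expression by these cells themselves was not tested. In the lateral red library their 228 COL14A1 UMIs lay in 6.09% of the 558 cells. Both COL6A1 and COL6A3 were found in 3.38% of these cells after thinning to 1000 UMIs. COL8A1 and COL12A1 had higher shares of cells with a UMI than this background in both red libraries when cells were thinned to 1000 UMIs. The intervals overlapped in 1 library for each gene. They cover counting error within 1 library only, not the spread between libraries. In the medial red library 2.90% of endothelial-marker cells had a COL8A1 UMI (95% exact binomial interval 1.67% to 4.66%, 4.84% before thinning) against 0.414% of myeloid-marker cells (0.0502% to 1.49%, 0.671% before thinning), and in the lateral red library 1.90% (0.822% to 3.70%, 3.13% before thinning) against 0.423% (0.0512% to 1.52%, 0.896% before thinning). For COL12A1 the shares in the lateral red library were 4.74% (2.92% to 7.22%, 5.02% before thinning) and 1.06% (0.344% to 2.45%, 2.51% before thinning), and in the medial red library 4.89% (3.25% to 7.04%, 6.22% before thinning) and 2.07% (0.997% to 3.77%, 3.19% before thinning). In the medial white library COL12A1 was lower in endothelial-marker (72.2 CPM, 27 UMIs) than in myeloid-marker cells (88.5 CPM, 8 UMIs). In the lateral white library it was higher (106 CPM, 16 UMIs, against 8.86 CPM, 1 UMI). COL8A1 was higher in endothelial-marker cells of both, at 26.6 against 0 CPM (lateral) and 72.2 against 33.2 CPM (medial). It had 4 against 0 and 27 against 3 UMIs. The median depths of the endothelial-marker and myeloid-marker cells were 1457 and 1340 UMIs in the medial red and 1190 and 1444 UMIs in the lateral red library.

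**Figure D2:**
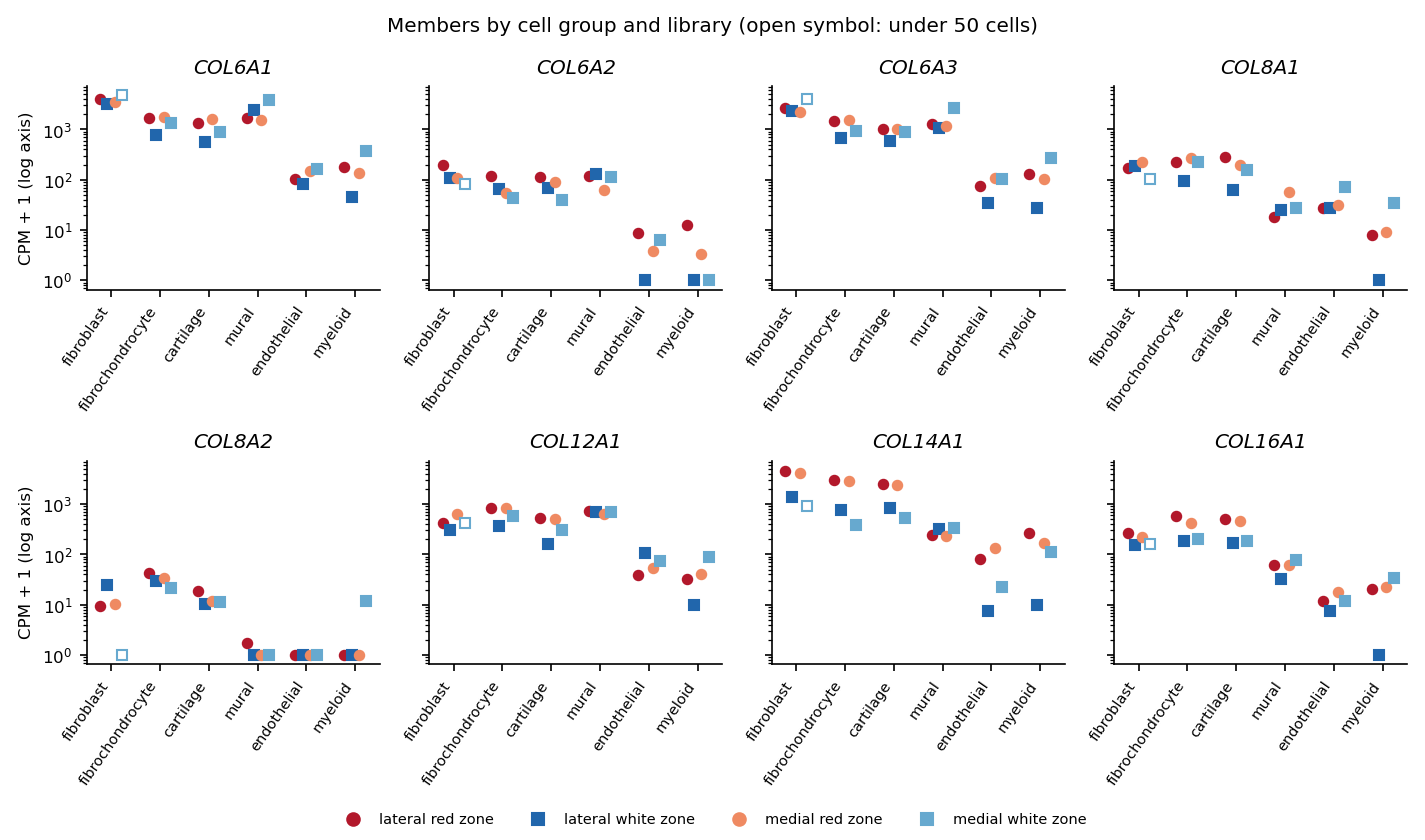
Level of each member (CPM + 1, log axis) in 6 cell groups, with 1 symbol per library and open symbols for sums of under 50 cells. COL12A1 in mural-marker cells (643 to 747 CPM) lay within or above its levels in the matrix groups, whereas COL14A1 there (232 to 330 CPM) lay below all fibroblast, fibrochondrocyte and cartilage sums.

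The share of cells with a UMI told the same groups apart when each cell was thinned to 1000 UMIs, which left out 5146 shallower cells. In the lateral red library COL6A1 was found in 96.1% of fibroblast-marker cells (95% exact binomial interval 94.7% to 97.2%, 98.7% before thinning), 71.2% of mural-marker cells (67.4% to 74.8%, 78.3% before thinning) and 61.7% of cartilage-marker cells (56.1% to 67.1%, 80.7% before thinning). Myeloid-marker cells, taken as background, had 6.77% (4.67% to 9.42%, 7.53% before thinning). The median depths of these 4 groups were 1725, 1350, 1870 and 1444 UMIs per cell. The intervals cover counting error only.

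COL12A1 was found in 46.5% of mural-marker cells of the lateral red library (42.4% to 50.6%) and 25.7% of its fibroblast-marker cells (23.0% to 28.6%), with 53.4% and 37.5% before thinning. The background in myeloid-marker cells was 1.06% (2.51% before thinning). COL14A1 had the opposite order, with 14.4% of mural-marker (11.7% to 17.5%) and 87.4% of fibroblast-marker cells (85.2% to 89.4%), 19.1% and 91.4% before thinning and 5.92% in myeloid-marker cells (6.09% before thinning). In this library COL12A1 was thus found in more of the mural-marker cells and COL14A1 in more of the fibroblast-marker cells. The intervals count cells of 1 library and do not stand for replicates. In the lateral white library COL12A1 was found in 45.8% of mural-marker (31.4% to 60.8%) and 24.4% of fibroblast-marker cells (12.9% to 39.5%), with overlapping intervals. COL14A1 had 25.0% and 57.8% there. In the medial red library the shares were 43.2% and 28.8% for COL12A1 and 13.4% and 92.2% for COL14A1.

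Both COL6A1 and COL6A3 were found in 80.6% of the thinned fibroblast-marker cells in the lateral red, 73.3% in the lateral white and 74.6% in the medial red library. In the lateral red library COL6A1 was found in 96.1% and COL6A3 in 82.7% of these cells, so a high joint share follows from the single ones. Whether the genes share cells beyond that was not tested. In mural-marker cells the share was 46.5% in each red library, 43.8% in the lateral white and 78.7% in the medial white library. Cartilage-marker cells had 35.1% and 37.0% in the red and 17.5% and 26.8% in the white zone, and endothelial-marker cells 1.75% to 4.65%. Where depth is the same, the pair was thus found in more of the fibroblast-marker cells than of the cartilage-marker cells in each of the 3 libraries with a value for both groups.

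The cells that supplied the UMIs of each gene changed with the zone. Fibroblast-marker cells held 44.6% and 58.7% of the COL6A1 UMIs of the lateral and medial red library but 2.95% and 1.45% of those of the white libraries. Cartilage-marker cells held 4.95% and 1.84% of them in the red and 63.0% and 52.2% in the white zone. For COL12A1 mural-marker cells held 22.6% and 15.2% in the red zone, and for COL14A1 only 1.45% and 1.14%. Cells that met several lists held 16.2% and cells that met none 13.3% of the COL6A1 UMIs of the lateral red library, and these cells enter no group comparison.

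**Figure D3:**
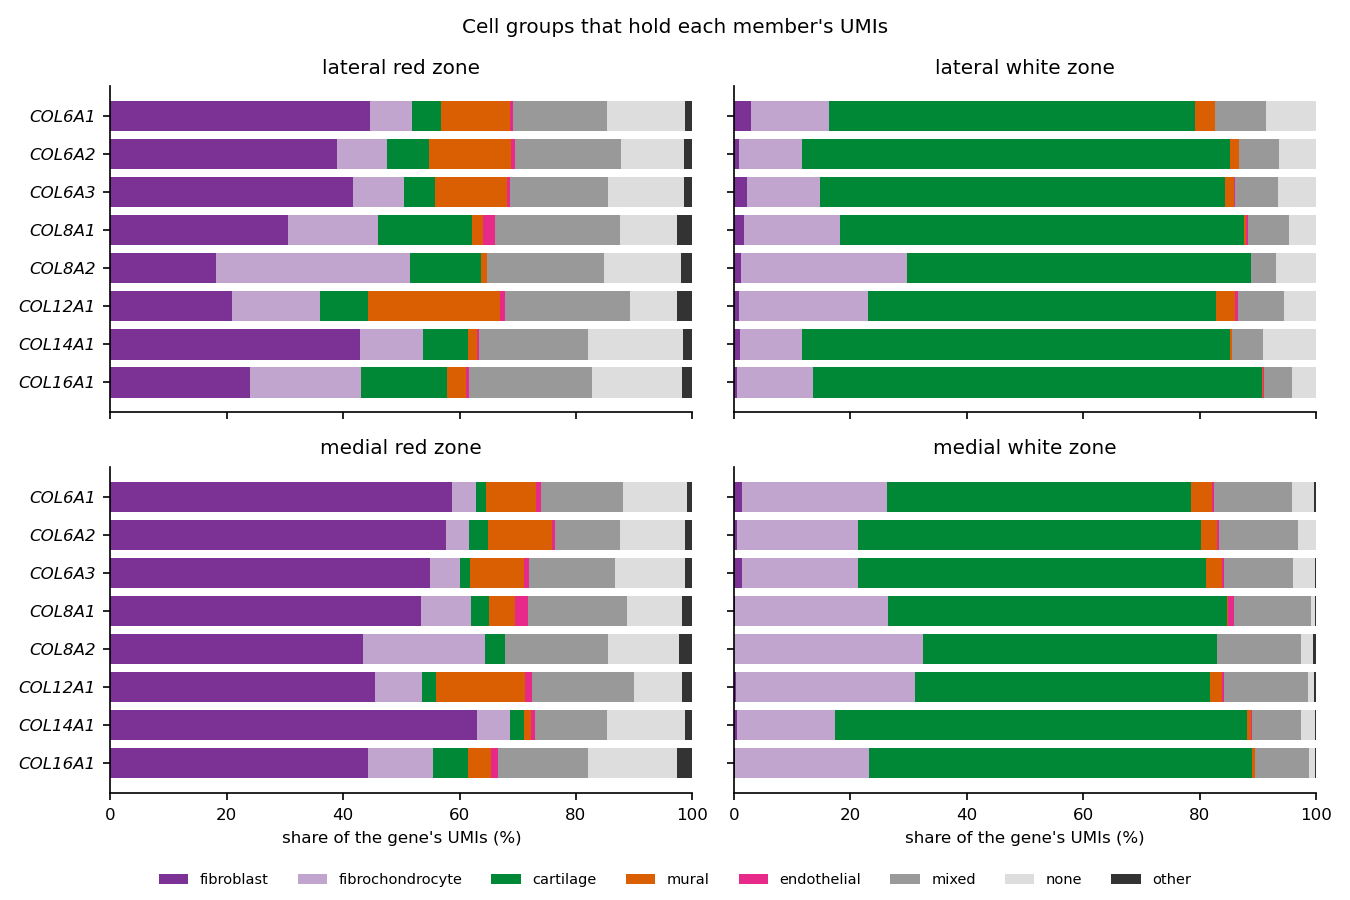
Share of each member's UMIs (horizontal axis, percent) that came from each cell group, with 1 panel per library. For COL6A1 the fibroblast-marker cells supplied 44.6% and 58.7% in the red libraries, and the cartilage-marker cells 63.0% and 52.2% in the white ones.

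The zones were then compared within cell groups. In cartilage-marker cells COL6A1, COL8A1, COL12A1, COL14A1 and COL16A1 fell from the red to the white zone and no member rose. COL14A1 had 2531 and 2395 CPM in the red and 832 and 526 CPM in the white libraries (lateral first) (-1.74 ± 0.26, 3.33-fold lower, adjusted p = 1.70e-09). COL16A1 had 509 and 457 CPM in the red and 171 and 184 CPM in the white zone (-1.29 ± 0.25, adjusted p = 1.59e-05). COL12A1 had 527 and 517 CPM in the red and 157 and 304 CPM in the white zone (-1.11 ± 0.25, adjusted p = 0.000379). The calls were not confined to these 3 FACIT genes, since COL6A1 and COL8A1 were called lower as well.

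COL6A1 had 1367 and 1622 CPM in the red and 560 and 893 CPM in the white zone of these cells (-0.92 ± 0.25, adjusted p = 0.0052). COL6A3 had 1037 and 1006 against 592 and 900 CPM (-0.33 ± 0.25, adjusted p = 0.507), and COL6A2 had 111 and 88.6 against 68.6 and 39.2 CPM (-0.73 ± 0.27, adjusted p = 0.0699). COL8A1 had 279 and 195 CPM in the red and 62.7 and 156 CPM in the white zone (-1.15 ± 0.26, adjusted p = 0.000498), with most of the difference in the lateral meniscus. COL8A2, at 17.6 and 10.6 against 9.14 and 10.2 CPM from 12 and 3 against 95 and 98 UMIs, did not pass (-0.52 ± 0.50, adjusted p = 0.639).

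The 5 members lower of 8 compare with 8.14% of 9883 genes called and 4.22% lower, and the members' median was -1.02 against 0.058 for all genes. The red libraries had 332 and 178 of these cells and the white ones 4992 and 4684, and without the lateral red or the medial red library 0 members were called (COL14A1 then -1.56 and -1.75, adjusted p = 0.363 and 0.341), where 0 of 11021 and 1 of 11078 genes were called, while without the lateral white library 3 were. With the meniscus left out as second term 2 were called (COL14A1 and COL16A1), with DESeq2 and with 1 marker more 3 each, without TMM 6 and with 1 marker fewer 7, all lower. The summed level of the 12 cartilage markers was 8633 and 6656 CPM in the red and 13868 and 16605 CPM in the white cartilage-marker cells, and that of the 12 measured fibroblast markers 3838 and 4846 against 1612 and 2605 CPM. Of the latter 10 and 11 had UMIs in the red libraries (MFAP5 and PI16 were at 0 in the lateral, CXCL12 in the medial one) and 10 and 12 in the white ones (MFAP5 and PI16 at 0 in the lateral one). Their part in the result was not tested.

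Fibrochondrocyte-marker cells, a comparison added after the values had been seen, had COL14A1 at 3083 and 2876 CPM in the red and 771 and 391 CPM in the white zone (-2.37 ± 0.35, 5.17-fold lower, adjusted p = 0.0021). COL16A1 fell from 572 and 413 to 186 and 201 CPM (-1.26 ± 0.25, adjusted p = 0.0124). These 2 of 8 members were lower, where 6.10% of 7065 genes were called and 3.65% were lower. The other 6 members had log2 fold changes of -0.86 to -0.55 and did not pass. In the same cells the 12 measured fibroblast markers summed to 4658 and 6239 CPM in the red and 2015 and 3159 CPM in the white zone, with all 12 above 0 in the red and 10 and 11 in the white libraries (PI16 at 0 in both, MFAP5 in the lateral one). The 12 cartilage markers summed to 1277 and 1325 against 2057 and 1837 CPM, with 8 above 0 in each red library and 12 and 10 in the white ones. The part of these markers in the result was not tested. With 1 marker fewer per cell COL6A1 (-1.02) and COL6A3 (-1.05) passed as well, and without the lateral red or the medial white library COL14A1 alone passed.

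COL8A2, called higher in the white zone over all cells, was not higher there in either of these groups. In fibrochondrocyte-marker cells it had 41.9 and 33.5 CPM in the red and 28.2 and 20.6 CPM in the white zone (-0.56 ± 0.30, adjusted p = 0.341). In each of the 4 libraries these cells had the highest COL8A2 level of the groups named by 1 list with 50 or more cells, although cells that met several lists had 21.6 CPM in the medial white library. They made up 8.02% and 5.35% of the red and 16.6% and 25.5% of the white zone.

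Fibroblast-marker cells could not be tested between zones because of the 29 cells of the medial white library. COL14A1 had 4564 and 4212 CPM in the red libraries and 1377 CPM in the lateral white one, with 45 UMIs (910 CPM) in the 29 medial white cells. COL6A1 had 4792 CPM in these 29 cells, above the 3185 to 4027 CPM of the other 3 libraries. With 1 marker fewer per cell the test could be made and called 0 of 8 members, against 96 of 7963 genes.

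In mural-marker cells the zone had no called effect on any of the 7 members tested, where 6.64% of 6887 genes were called. At an unadjusted p below 0.05 there was 1 member, and DESeq2 also called 0. COL6A1 had 1721 and 1542 CPM in the red libraries and 2409 and 3804 CPM in the white ones, so that the groups did not overlap (0.88 ± 0.31, adjusted p = 0.0629). COL14A1 had 247 and 232 against 325 and 330 CPM (0.43 ± 0.27, adjusted p = 0.414) and COL12A1 747 and 643 against 713 and 705 CPM (0.01 ± 0.27, adjusted p = 0.988).

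The mural-marker cells of the white zone, 101 and 119 against 812 and 823 in the red zone, also differed in some of their own markers. ACTA2, the smooth muscle actin, had 3571 and 3323 CPM in the red and 1831 and 835 CPM in the white zone, and the pericyte gene RGS5 2299 and 2105 against 8226 and 6916 CPM. The 11 mural markers together had 15991 and 14315 against 16444 and 13689 CPM, with DES alone at 0, in the white libraries. The 12 cartilage markers summed to 54.4 and 28.1 against 317 and 259 CPM in these cells, with 7 of 12 above 0 in each library but the medial white one, which had 5, and the 6 fibrochondrocyte markers to 349 and 240 against 769 and 1740 CPM. MIA, COL11A2 and CNMD were at 0 in all 4. The 12 measured fibroblast markers summed to 1002 and 921 against 214 and 744 CPM, with 11, 12, 9 and 10 above 0. The part of these markers in the COL6A1 values was not tested. Without the lateral white library COL6A1 (1.19, adjusted p = 0.000358) and COL6A3 (1.09, adjusted p = 0.0015) were called.

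COL6A1 and COL14A1 had opposite signs in mural-marker and cartilage-marker cells, though neither was called in the former. The signs were also opposite for COL6A2 (0.45 against -0.73), COL6A3 (0.48 against -0.33) and COL12A1 (0.01 against -1.11). The difference between the zone effects was therefore tested, a comparison added after the values had been seen. It was 2.12 ± 0.34 for COL14A1 (adjusted p = 0.000171), 1.73 ± 0.30 for COL6A1 (adjusted p = 0.000363) and 1.04 ± 0.30 for COL12A1 (adjusted p = 0.0376), on the log2 scale and 4 libraries. These 3 of 7 members were called, all higher, where 5.12% of 8359 genes were called and 2.17% were higher, and the median of all genes was -0.15. COL6A2 (1.09 ± 0.39, adjusted p = 0.110), COL6A3 (0.75 ± 0.32, 0.185), COL16A1 (1.12 ± 0.48, 0.192) and COL8A1 (0.45 ± 0.81, 0.837) were not called. In the red libraries COL14A1 had 247 and 232 CPM in mural-marker cells, near the 265 and 165 CPM of myeloid-marker cells. The call of COL12A1 was lost with DESeq2 (adjusted p = 0.0756), without the filter (0.116), with 1 marker more (0.305), and without the lateral red (0.162), lateral white (0.485) or medial red (0.193) library.

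In endothelial-marker cells COL14A1 was the 1 of 5 members tested that was called, lower in the white zone (-3.01 ± 0.42, adjusted p = 5.70e-08), where 12.0% of 6307 genes were called and 6.75% were lower. Its levels, 79.98 and 136 CPM in the red and 6.64 and 21.4 CPM in the white zone, were below those in myeloid-marker cells of the same libraries (265, 165, 8.86 and 111 CPM). Whether these levels stand for background or for expression by endothelial cells was not tested. COL8A1 and COL12A1 had log2 fold changes of 0.72 ± 0.41 and 0.64 ± 0.33 and did not pass (adjusted p = 0.269 and 0.221).

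**Figure D4:**
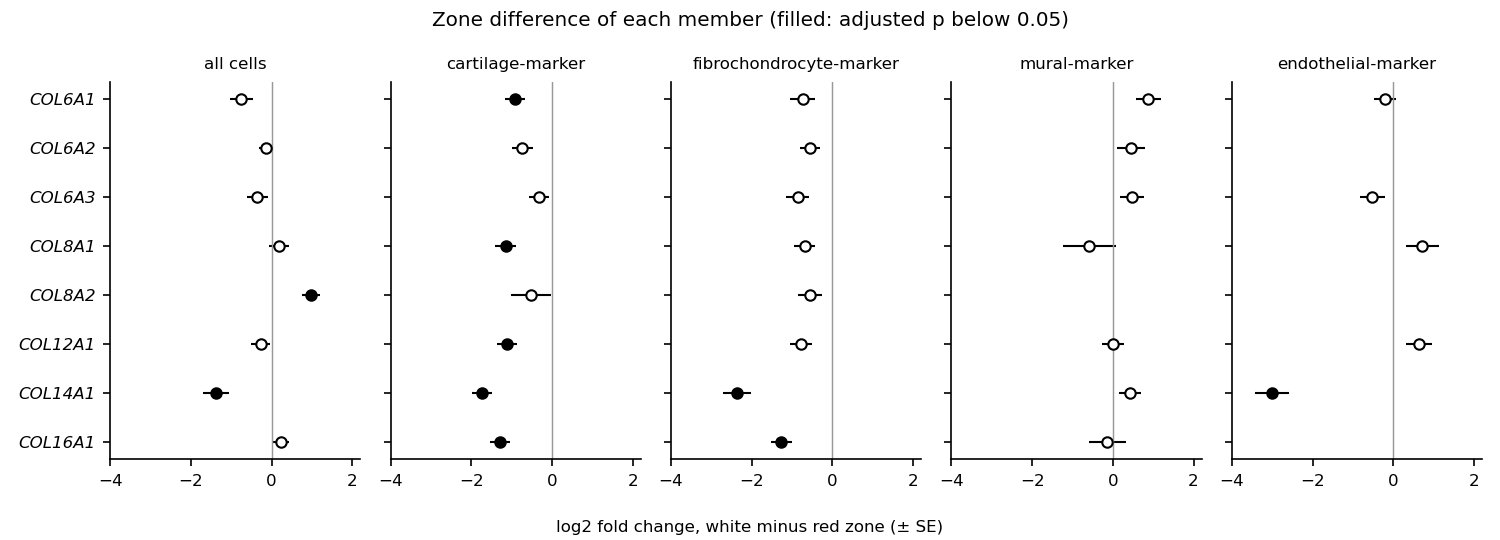
Log2 fold change of white against red zone (horizontal axis, points with standard error) for each member over all cells and in 4 cell groups, with filled points where the adjusted p was below 0.05. The 8 points in cartilage-marker cells lie between -1.74 and -0.33, and 5 of the 7 in mural-marker cells lie at or above 0.01.

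The levels of the members followed each other over the 24 sums of a library and a cell group with at least 50 cells. These sums share libraries, depth and the contrast between matrix and vascular or immune cells, so the correlations of log2(CPM + 20) are descriptions. The highest between members was r = 0.99 for COL6A1 and COL6A3. It was followed by 0.93 for COL6A1 with COL12A1, for COL14A1 with COL16A1 and for COL6A1 with COL6A2. The lowest was 0.46 for COL6A2 with COL8A2. Among 4999 other genes the closest to COL6A1 after COL6A3 were ECM2 (0.99) and ADAMTS2 (0.97), a protease that cleaves procollagen. The closest to COL6A3 after COL6A1 were ECM2 (0.97) and TENT5A (0.97), and the closest to COL6A2 were ANK2 (0.96), PLEKHA5 (0.94) and EMILIN1 (0.94).

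For the FACIT genes the closest were HOXA9 (0.96), GEM (0.96) and PDZRN3 (0.95) to COL12A1, PDGFRL (0.95), AEBP1 (0.94) and the proteoglycan gene VCAN (0.94) to COL14A1, and CREB3L1 (0.97), BARX1 (0.96) and C1QTNF2 (0.96) to COL16A1. COL8A1 was closest to FKBP7 (0.95), KDELR3 (0.94) and CNPY2 (0.94). COL8A2, with 544 UMIs, was closest to THBS4 (0.88), THRB (0.87) and MKX (0.87).

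Other genes of the same families and pathway were compared between zones over all cells, against the same 39.3% of all genes called. Of 8 further collagens of these families 4 could be tested, 3 fell and 0 rose. COL6A5 and COL6A6, genes of alternative collagen VI chains, had 33 and 32 UMIs in the lateral red and 47 and 342 UMIs in the medial red library, and in the white zone 0 and 0 in the lateral and 0 and 1 in the medial library. COL21A1, another FACIT gene, had 24.2 and 33.9 CPM in the red and 2.04 and 1.27 CPM in the white zone (-3.63 ± 0.33, adjusted p = 0.000199). All 3 were thus low in both of the white libraries.

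Of the 6 chains of the fibril-forming collagens I, III and V, on which FACITs sit, 3 rose and 1 fell (median 0.47), with COL3A1 at 2.61 ± 0.62 (adjusted p = 0.0136), COL5A2 at 1.19 ± 0.27 (adjusted p = 0.0115) and COL5A3 at -2.41 ± 0.19 (adjusted p = 0.000121). Of 10 receptors and binding partners on the cell surface 4 rose and 2 fell (median 0.13): ANTXR2, which binds collagen VI, at -2.69 ± 0.19, the collagen kinase DDR2 at 2.25 ± 0.17 and the chondrocyte integrin ITGA10 at 3.24 ± 0.25. Of 10 tested matrix partners 4 rose and 2 fell (median 0.74), with MATN4 at 2.98 ± 0.21, DCN at 2.80 ± 0.49 and FMOD at 1.96 ± 0.36. These were differences between zones in which the proportions of cells also differ.

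Of 20 genes for collagen folding and hydroxylation 9 rose and 3 fell (median 0.40), with the prolyl hydroxylase P4HA3 at -1.89 ± 0.17, the collagen galactosyltransferase COLGALT2 at 4.53 ± 0.42 and FKBP14 at 1.50 ± 0.18. Of 10 tested genes for cross-linking and propeptide cleavage 4 rose and 3 fell (median -0.087), with the protease TLL1 at -4.07 ± 0.38, the lysyl oxidases LOXL4 at 3.08 ± 0.38 and LOX at 2.50 ± 0.33.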

How the data were processed

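The deposited matrices hold raw UMI counts of filtered barcodes; Cell Ranger 6.1.2 and the build Sscrofa11.1 are named in the submitters' processing notes. Of 27782 barcodes 27693 were kept, with at least 500 UMIs, 200 genes and at most 20% mitochondrial UMIs. No doublet caller was used, and cells that met several marker lists were set apart. Of 112 listed markers 101 were counted: 5 were not found, and 6 were left out because cells with other markers of the list held them under 3 times as often as cells without. The members, lists and comparisons were chosen with earlier results of these data known. The grouping rule was chosen after marker counts and member values had been seen, with another rule also looked at.

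Counts were summed per library or per library and cell group (at least 50 cells) and tested with edgeR 4.0.16 (R 4.3.3, TMM, filterByExpr, glmQLFit, glmQLFTest), with zone and meniscus as terms (1 residual degree of freedom), or with the library as block. P-values were adjusted by Benjamini-Hochberg over all genes tested. The SE is the log2 fold change over the root of F. It rests largely on a spread pooled over genes and is not the spread of each gene between libraries. In the zone tests of cartilage-marker and mural-marker cells it rested on the pooled spread almost alone. Small p-values there treat the spread as known. A permutation of 2 against 2 libraries, which was not run, could give no p below 0.33. In cartilage-marker cells the SE was 0.25 for COL16A1 and for COL12A1. Their white libraries had 171 and 184 CPM for COL16A1 but 157 and 304 CPM for COL12A1. A member with at most 3 UMIs on one side got no fold change. The test was also run on simulated counts in which every gene had the same spread and libraries had no effect of their own. These data need not have that form, so the run does not show how the test holds here. Alternatives were DESeq2 1.42.0, no TMM, no filter, no replicate block, 1 marker fewer or more, removal of the 5% of cells with the most UMIs, and leaving out each library (with the second term, for zones and menisci). Named besides the members are up to 3 genes per list with the lowest adjusted p between zones, and the 3 genes most correlated with each member (mean of at least 20 CPM). CPM was computed from the counts (Python 3.11.15, numpy 2.4.6, scipy 1.17.1, pandas 2.3.3).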

Additional observations from a re-analysis of the deposited data

Results flagged for a closer look

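The zone difference differed between mural-marker and cartilage-marker cells by a test of the difference itself for COL14A1 (2.12 on the log2 scale), COL6A1 (1.73) and COL12A1 (1.04). The test was added after the values had been seen. In mural-marker cells alone the zone difference was called for none of these genes. COL14A1 had 41 (lateral) and 51 UMIs (medial) in the mural-marker cells of the white libraries. In the red libraries its level in mural-marker cells lay near that in myeloid-marker cells.

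The white and the red zone differed in opposite directions in the menisci for the pairs of values below, each from 1 library per zone. These differences between menisci were not tested, and the share of all genes with opposite directions was not counted. The ratios are of CPM without TMM scaling. Over all cells the log2 ratio of white to red CPM was -0.84 laterally and 0.21 medially for COL8A1, and -0.55 and 0.014 for COL16A1. In mural-marker cells it was -0.24 and 1.20 for COL6A3, -0.066 and 0.13 for COL12A1, and -0.93 and 0.38 for COL16A1. COL16A1 had only 4 (lateral) and 12 UMIs (medial) in these cells of the white libraries. In endothelial-marker cells it was -0.37 and 0.13 for COL6A1, and -0.025 and 1.24 for COL8A1, which had 4 UMIs in the lateral white library.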

How the results depend on the processing

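Of 29 member calls over all comparisons 16 held with each library left out in turn and 13 were lost with at least 1 left out. For zones and menisci such fits also leave out the second term, so they change 2 choices at once. Of 717 single values under the alternatives 608 kept direction and side of the threshold, 30 passed newly, 38 no longer passed and 41 changed sign, none of them of a member called in the reported fit. The cause of these changes was not tested. The numbers of members called, 2 between zones over all cells, were 5 without TMM and 0 to 4 with 1 library left out. Between menisci (0) there was 1 without the filter. In cartilage-marker cells (5) there were 3 with DESeq2, 2 with no replicate block, 3 with 1 marker more, 7 with 1 marker fewer, 6 without TMM and 0 to 5 with 1 library left out. In mural-marker cells (0) there were 0 to 2 and in endothelial-marker cells (1) 1 to 2 with 1 library left out. Between fibroblast-marker and cartilage-marker cells (3) there were 5 with 1 marker more and 0 to 5 with 1 library left out, and in fibrochondrocyte-marker cells (2) 4 with 1 marker fewer and 1 to 3. No replicate block changed no other count by over 1.5 times. TMM removal moved the median of all genes to between -0.50 (zones, all cells) and 0.31 (fibroblast-marker against cartilage-marker cells).

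Values that changed sign with 1 library left out ranged, between zones over all cells, from -0.61 to 0.33 for COL6A2, -0.43 to 0.78 for COL8A1, -0.69 to 0.15 for COL12A1 and -0.027 to 0.48 for COL16A1. Between menisci, where leaving out 1 library sets 1 library of 1 zone against 2 of both zones so that the values also hold the zone difference, they ranged from -0.15 to 0.85 for COL6A1, -0.030 to 0.53 for COL6A3, -0.88 to 0.34 for COL8A2 and -1.48 to 0.39 for COL14A1. Within groups they ranged from -0.73 to 0.11 for COL8A2 in cartilage-marker cells and from -1.10 to 0.15 for COL6A2 in fibrochondrocyte-marker cells. In mural-marker cells the ranges were -0.047 to 0.091 for COL12A1, -1.01 to 0.33 for COL16A1 and -0.25 to 1.09 for COL6A3, and in endothelial-marker cells -0.87 to 0.25 for COL6A1 and -0.31 to 1.11 for COL8A1. Between fibroblast-marker and cartilage-marker cells they were -0.59 to 0.46 for COL8A1, -1.02 to 0.11 for COL8A2 and -0.29 to 0.25 for COL12A1, and for the difference of zone effects -0.67 to 1.73 for COL8A1, which was -0.080 without the top 5% of cells. Without TMM COL8A1 (-0.31) and COL16A1 (-0.27) changed sign over all cells, as did COL8A1 (0.096) and COL12A1 (0.25) between fibroblast-marker and cartilage-marker cells. COL12A1 in mural-marker cells was -0.033 with DESeq2, -0.12 without the filter and -0.031 with 1 marker fewer. With 1 marker fewer COL12A1 was 0.35 between fibroblast-marker and cartilage-marker cells and -0.098 between mural-marker and fibroblast-marker cells, and COL6A1 was 0.0024 in endothelial-marker cells, where it was 0.024 without the top 5%. With 1 marker more COL12A1 was 0.091 between fibroblast-marker and cartilage-marker cells and COL8A2 0.014 in cartilage-marker cells. The levels per library and cell group were 0.605 to 1.61 times those reported with 1 marker fewer and 0.587 to 1.48 times with 1 marker more. The alternatives for the zone test in fibroblast-marker cells were not run beyond 1 marker fewer and the fit without the medial white library (0 of 8 called each), since that library held too few cells.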
